A study of Mus musculus with 9 samples.

Results

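Liver RNA from mice given β-CYP together with sodium selenite was compared with liver RNA from untreated mice. This comparison uses 6 of the 9 libraries of the study, 3 in each group, chosen by their labels and not by any measured value. All animals are labelled as Swiss mice of 10 to 12 weeks. The control group received no treatment. The selenite group received β-CYP at 40 mg/kg and sodium selenite (Na2SeO3) at 50 µg/kg, and the third group, which is quoted only for reference, received β-CYP at 40 mg/kg alone. What β-CYP stands for is not written out. In the design text β-CYP alone is the injury condition, and its combination with selenite the repair condition. The selenite group differs from control by both agents at once, and no group given selenite alone was analysed here, so the part of each agent cannot be told apart in this comparison. Nothing in the labels ties the 3 libraries of each group to different animals. The p-values therefore cover the spread among libraries alone, and that spread may be technical.

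The liver answers infection and injury with an acute phase response, in which hepatocytes secrete large amounts of a few plasma proteins under the control of interleukin-6 and interleukin-1 while many of their metabolic enzymes are turned down. Selenium reaches proteins as selenocysteine, an amino acid that is inserted at a stop codon with the help of a dedicated machinery, and the liver releases selenium to other organs as selenoprotein P. Many selenoproteins are antioxidant enzymes, such as the glutathione peroxidases and thioredoxin reductases, while others sit in the membrane of the endoplasmic reticulum (ER).

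Values are scaled counts, that is, reads divided by the size factor of their library, and changes are log2 differences of the group means of log2(scaled count + 1), selenite group minus control, with the standard error from limma. A gene is said to rise or fall only where its Benjamini-Hochberg adjusted p was under 0.05. Libraries held 28630269 to 35821336 reads in control and 32084480 to 33056400 in the selenite group. Albumin made up 6.01% to 6.63% of reads in control and 6.37% to 6.44% in the selenite group. Ddx3y, on the Y chromosome, had 1664, 1137 and 1341 scaled counts in control and 1460.2, 1692 and 1526 in the selenite group, and Xist, the RNA of the inactive X chromosome, stayed at 12.1 or below in all 6 libraries. Transcripts of other tissues differed between the groups, in both directions. The genes listed for pancreatic acinar cells summed to 69407 to 71421 reads in the selenite libraries (at most 0.216% of all reads) and to 981 to 1087 in control, where most of them came from Cela1, with 1068, 978 and 1142 scaled counts. Pnlip, pancreatic lipase, had 0 reads in the 3 control libraries and 5144, 5478 and 5151 scaled counts in the selenite group. Skeletal muscle genes summed to 1351 to 1401 reads against 16 to 27, and spermatid genes to 468 to 497 against 722 to 854. Control replicate 2 stood apart in ribosomal RNA: AY036118, an rRNA-like transcript, took 1805976 of its reads, against 42232 and 43988 in the other controls.

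Of 20145 genes tested, 5823 (28.9%) differed between the groups: 2908 rose (14.4%) and 2915 fell (14.5%). Of these, 894 rose and 679 fell by at least 2-fold. The libraries of the groups did not overlap for 8418 genes (41.8%). For reference, β-CYP alone differed from the same control libraries in 3285 genes (16.3%), 1556 higher and 1729 lower. Since both comparisons share their controls, values of the β-CYP group are given only side by side. The split between rises and falls depends on the scaling. With libraries scaled to equal totals it was 3977 higher and 1763 lower, and with equal medians 1819 higher and 4550 lower. These scalings moved the median change of all genes from 0.03 to 0.16 and to -0.13, so small changes are to be read against that shift.

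**Figure D1:**
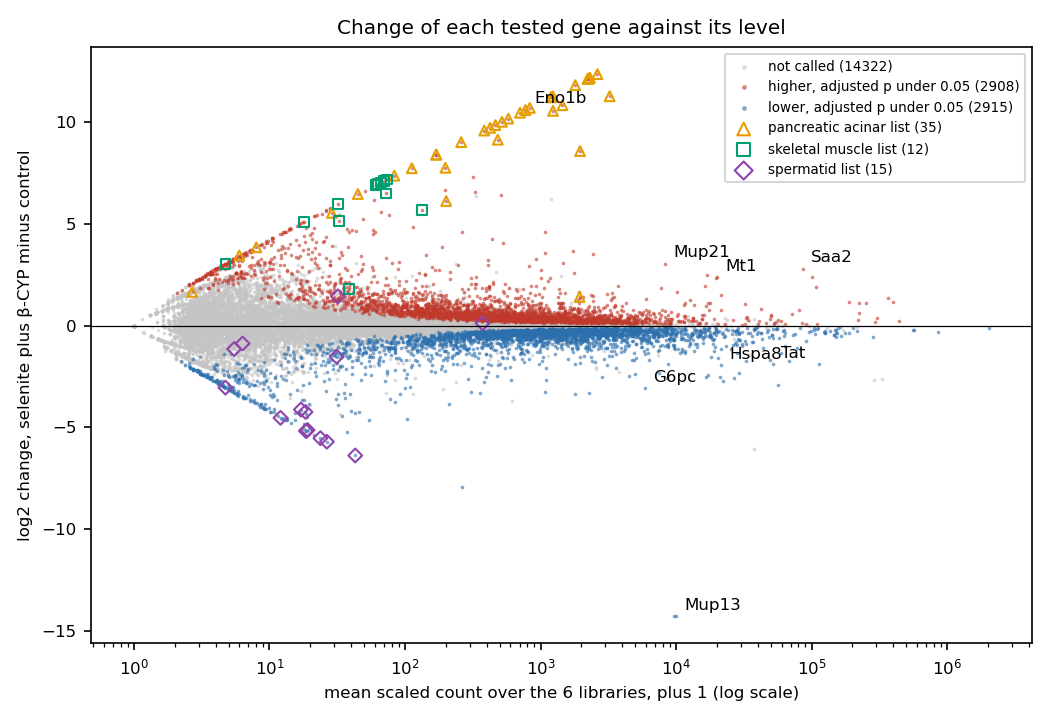
Each point is a tested gene, with its mean scaled count over the 6 libraries plus 1 on the x axis (log scale) and its log2 change, selenite plus β-CYP minus control, on the y axis. Red points are the 2908 genes that rose and blue points the 2915 that fell; triangles, squares and diamonds mark the acinar, muscle and spermatid lists, most of which lie at the edges, as does Mup13 at -14.28.

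**Figure D2:**
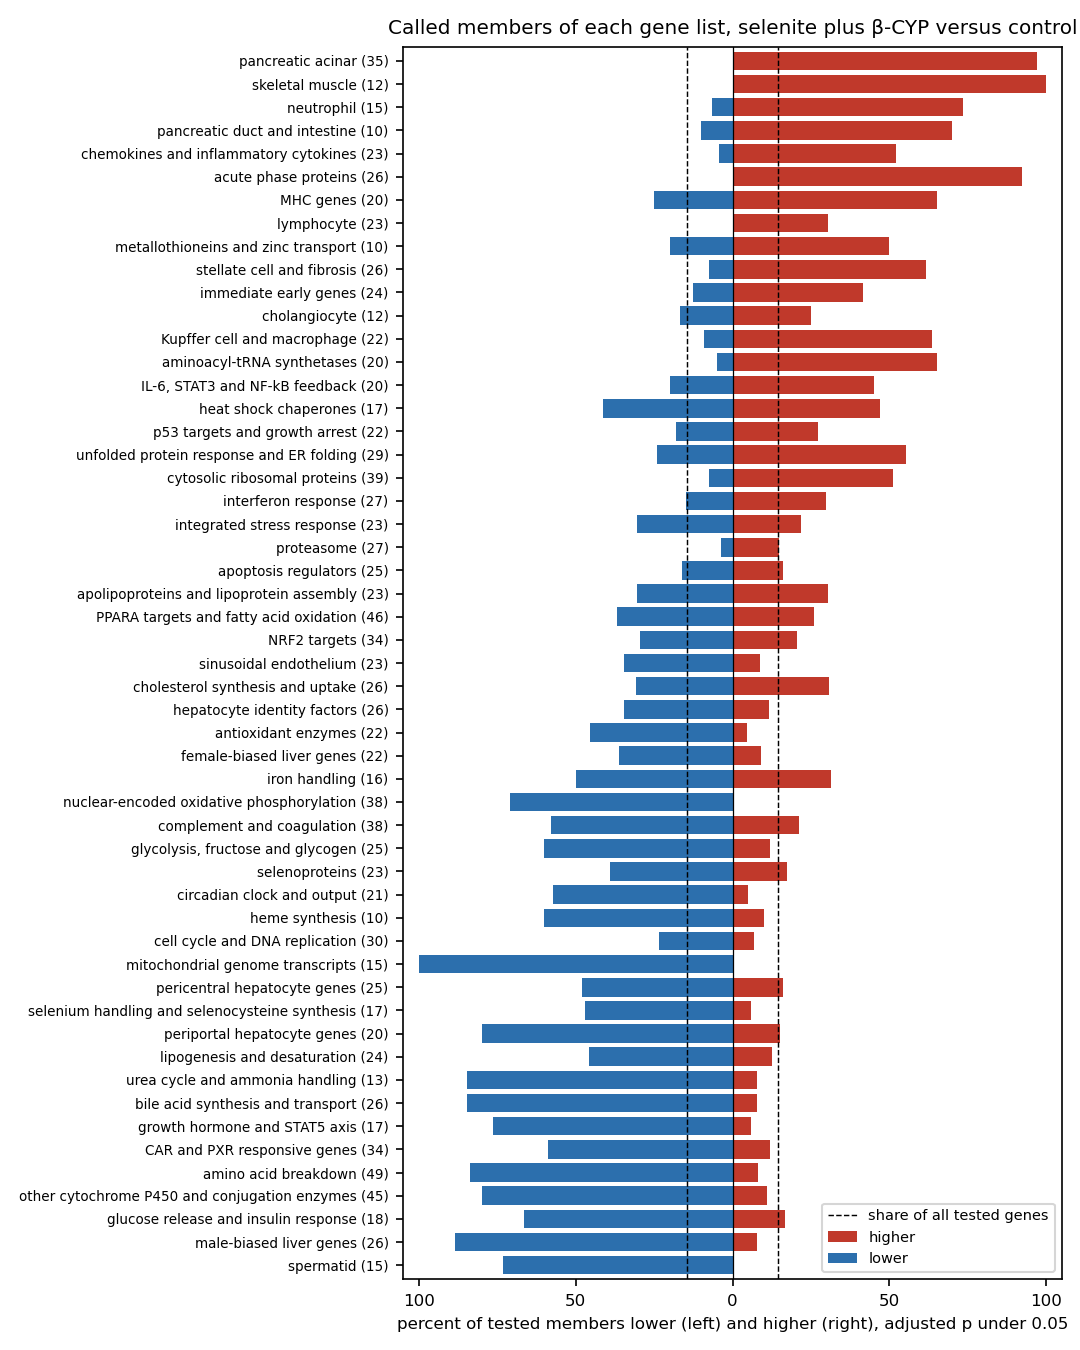
Percent of tested members of each gene list with at least 10 tested members (number in parentheses) that rose (red, right) or fell (blue, left); lists are ordered by their median change, and dashed lines mark 14.4% and 14.5%, the shares among all tested genes. Acute phase, neutrophil and MHC lists stand at the top, beside the acinar and muscle lists, and the male-biased, glucose, P450 and amino acid lists at the bottom, beside the spermatid list.

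Among genes outside the acinar and islet lists that reached a mean of at least 100 scaled counts in the higher group with no overlap of libraries, muscle genes made up 6 of the 12 largest rises: Atp2a1 (the calcium pump of fast muscle), Mb (myoglobin), Myh1, Myh2, Tnnt3 and Ckm. Mb, for example, had 0 reads in the control libraries and 144, 137 and 135 scaled counts in the selenite group, at least 43.9-fold higher when 3 reads per library stand in for 0. The muscle list as a whole moved together, with 12 of 12 tested members higher. Eno1b, a copy of the enolase gene Eno1, also had 0 reads in control and in the β-CYP group, against 1577, 1569 and 1548 in the selenite group, at least 495-fold higher. Eno1 itself fell from 6541 ± 99.00 to 4832 ± 280.3 (SD, n = 3). The counting could have split reads between these copies, so neither value is certain by itself. Fam171b rose from 6.07, 8.05 and 0 to 625, 648 and 604, while the β-CYP libraries averaged 4.28. Reg3b, a secreted lectin also made in the pancreas, and Ear2, an eosinophil-associated ribonuclease with close relatives, both had 0 reads in control and means of 146 ± 14.1 and 131 ± 16.9 in the selenite group (SD, n = 3). Dmbt1, a secreted scavenger receptor of epithelia, rose from 6.07, 3.02 and 10.3 to 572, 712 and 667, a change of 6.57 ± 0.30, and averaged 645 with β-CYP alone.

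In all, 38 genes had 0 reads in the 3 control libraries and a mean of at least 50 scaled counts in the selenite group. Of these, 24 belong to the pancreatic lists and 6 to the muscle list. The other 8, which are only absent from these lists, were Cck, Ckmt2, Ear2, Eno1b, Pdia2, Pilrb1, Reg3b and Tff2, named after their values were seen. Whether they come from liver cells or from the same source as the listed pancreatic and muscle transcripts was not tested. In the opposite direction, 5 genes with a control mean of at least 50 had 0 reads in the selenite group: Mup13, Mup-ps19, Cyp2c40 and the sperm chromatin genes Prm2 and Tnp1. In Cyp2c40 the controls themselves differed, with 780.05, 22.1 and 760.03 scaled counts, and its adjusted p of 0.0254 ran from 0.0505 to 0.517 over the 8 alternatives that ended the call, among them leaving out control replicate 1, control replicate 3 or any selenite library.

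The acute phase list moved almost as a block. Of 26 members tested, 24 rose and none fell, with a median change of 1.13, against 14.4% higher and a median of 0.03 among all genes. With β-CYP alone, 24 of the same list were higher than control. Saa2, a serum amyloid A that replaces other apolipoproteins on HDL in inflammation, had 21853, 21063 and 22019 scaled counts in control and 154451, 146050.0 and 152436 in the selenite group. The groups were far apart, with no control library near a selenite library. The change was 2.80 ± 0.03 (6.98-fold, adjusted p = 3.8e-12). Saa1 and Saa2 are near-identical copies, so their separate values are uncertain. Saa3, a form made also by cells other than hepatocytes, rose too, from 70.8, 60.4 and 130.3 to 2123, 2044 and 2005.

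Lcn2, which binds bacterial siderophores, rose from 4520.4, 5193 and 5548 to 28557, 28631 and 29248, a change of 2.51 ± 0.06, and averaged 48066 with β-CYP alone. A2m, an inhibitor of many proteases, was close to absent in control, with 3.04, 2.01 and 3.43 scaled counts, and reached 379, 348 and 446, a change of 6.69 ± 0.25; its β-CYP mean was 58.5. The 3 chains of fibrinogen rose in step, Fga by 1.37, Fgb by 1.14 and Fgg by 1.13. Hp, the haemoglobin scavenger haptoglobin, rose by 1.13, and Orm2, an orosomucoid, by 0.26. Serpina3n, a serpin, rose from 32294, 32979.5 and 32224 to 165686, 170061 and 167669, and Steap4, a metalloreductase, by 2.34. Il1rn, which blocks the interleukin-1 receptor, rose by 2.28 and the plasma protein Lrg1 by 1.06.

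Complement and coagulation factors, many of them secreted by hepatocytes, did not follow the acute phase proteins. Of 38 tested 22 fell and 8 rose. The list also holds C1qa, C1qb and C1qc, which are in the macrophage list too, and Cfd of the fat-cell list. With equal totals 12 fell and 9 rose, and with quantile normalization 11 and 12. Without control replicate 2, control replicate 3 or selenite replicate 2 the number that rose was 5. Hc, complement C5, fell from 59313, 59380.1 and 59733 to 27672, 28532 and 27925, C9 from 40735, 40277 and 39802 to 21728, 21210.5 and 21000.1, C8b by 1.88-fold and the kallikrein precursor Klkb1 by 1.91-fold. For C9 the β-CYP mean was 58892, above control. With β-CYP alone 14 of the list were higher and 9 lower.

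Genes around cytokine signalling were divided. In the interleukin-6, STAT3 and NF-kB feedback list, 9 of 20 rose and 4 fell. Il1r1, the interleukin-1 receptor, rose from 1621, 1504 and 1537 to 5999, 5875 and 5996. Socs3, the inhibitor induced by interleukin-6, rose by 1.19, whereas Socs2 and Cish, the feedback inhibitors induced by growth hormone, fell by 1.84-fold and 4.8-fold. Cebpb, a transcription factor of the acute phase, fell from 2076, 2063 and 2044 to 1077, 1135 and 1167. Among chemokines and inflammatory cytokines 12 of 23 rose and 1 fell, with a median change of 1.47. Cxcl1, which attracts neutrophils, had 577, 534 and 563 in control and 1502, 1493 and 1497 in the selenite group, a change of 1.42 ± 0.04, and averaged 4151 with β-CYP alone. Cxcl9, an interferon-gamma target that attracts T cells, rose by 2.13, Cxcl13 by 1.62, Cxcl14 by 1.81, Ccl6 by 1.47 and Il1b by 1.59. Ccl7 had 0 reads in control and 11.05, 8.30 and 6.71 scaled counts in the selenite group.

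Interferon genes moved less and in both directions. Of 27 tested, 8 rose and 4 fell, and the list's median of 0.13 changed sign with equal medians (-0.03). Without control replicate 3 the number that fell was 2. The guanylate-binding proteins Gbp3 and Gbp2 rose by 1.23 and 1.07 and Oasl2 by 0.76. Ifit1, which recognises viral RNA, fell from 352, 342 and 351 to 164, 186 and 179.

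Several lists of immune cell markers had more rises than falls. In whole tissue, more cells of a type and more RNA per cell cannot be told apart. Of 15 neutrophil markers 11 rose, with a median change of 2.72, against 14.4% higher among all genes. The number that rose was 8 without control replicate 1 or 2 or selenite replicate 1 or 3. With equal medians it was 9. With a pseudocount of 10 the median change was 1.38. S100a8, a calcium-binding alarmin of neutrophils, had 16.2, 11.1 and 20.6 scaled counts in control and 164, 147 and 113 in the selenite group, and S100a9, its partner, 38.4, 48.3 and 25.1 and 263, 334 and 234. Neither gene's groups overlapped. Mpo rose by 2.72, Ngp by 3.05 and the receptor Csf3r by 0.85. The marker that fell was Cebpe, a transcription factor of granulocyte maturation, from 67.8, 66.4 and 78.9 to 6.44, 0 and 0, and it had 0 reads in the 3 β-CYP libraries.

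Of 22 entries for markers of Kupffer cells and other macrophages 14 rose and 2 fell, with a median change of 0.31. The symbol Itgam has 2 entries, of which 1 rose. Marco, a scavenger receptor, rose from 159.9, 192 and 200.01 to 615, 588 and 599.9, and averaged 148 in the β-CYP group. Cd163, the receptor for haptoglobin-haemoglobin complexes, rose from 451, 436 and 455 to 868, 950.1 and 934, while its β-CYP mean was 152. In the fit of all 9 libraries, β-CYP alone changed Cd163 by -1.55 and the combination by 1.03 ± 0.07. C1qa rose by 0.62. Clec4f, a lectin of Kupffer cells, changed by 0.22 ± 0.05 and lost its call with equal medians (adjusted p = 0.38), and Vsig4 did not pass the test, at 0.04 ± 0.04. The 2 markers that fell were Slc40a1, the iron exporter ferroportin, at -0.48 ± 0.04, and Folr2, a folate receptor, at -0.36 ± 0.11. The call of Folr2 (adjusted p = 0.0326) was lost in 8 alternatives (0.0586 to 0.109), among them leaving out control replicate 2, control replicate 3 or any selenite library.

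In the list of MHC genes, which present antigens, 13 of 20 rose and 5 fell. The class II genes H2-Aa, H2-Ab1 and H2-Eb1, which present peptides to helper T cells, rose by 2.21, 1.80 and 2.32, and their chaperone Cd74 by 1.60. H2-Aa had 363, 455 and 391 scaled counts in control, a mean of 872 in the β-CYP group and 1862, 1853 and 1869 in the selenite group. H2-Q10, a secreted class I molecule made by hepatocytes, fell from 45718, 44782 and 46656 to 26849.8, 26057 and 26847. Members of this family share long stretches of sequence and differ between strains, and a reference genome of a single strain was used for counting, so values of single members are uncertain. H2-Ea-ps shows how far they can diverge: 80.9, 45.3 and 52.6 in control, 0 reads in each β-CYP library, and 1022, 960.2 and 979 in the selenite group. Of 23 lymphocyte markers 7 rose and none fell. That is 30.4% of the list, against 28.9% that differed and 14.4% that rose among all genes tested. The count fell to 3 without control replicate 2, selenite replicate 1 or selenite replicate 2 and to 4 without selenite replicate 3. Igkc, an immunoglobulin light chain, rose by 0.82, and Gzmb, a protease of killer cells, went from 0 reads to 16.6, 36.9 and 26.8 scaled counts.

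Of 26 genes of stellate cells and fibrosis 16 rose and 2 fell, against 14.4% and 14.5% of all genes. With equal medians 10 rose and 4 fell. The number that rose was 11 with the 6 libraries alone, without an intensity trend, or without control replicate 2 or selenite replicate 2. Vim, an intermediate filament of mesenchymal cells, rose from 357, 330.2 and 409 to 855, 1052 and 897. Pdgfrb, the receptor that marks stellate cells, rose by 1.03, the basement membrane collagen Col4a1 by 0.96, the fibrillar collagen Col1a1 by 0.74 and smooth muscle actin Acta2 by 0.69. Timp1, which inhibits metalloproteinases, was at 0 reads in every control library and 51.6, 45.2 and 31.6 scaled counts in the selenite group, at least 13.5-fold higher, with a β-CYP mean of 78.3. The muscle and pancreatic transcripts named above were higher in these same libraries, and their part in the rise of mesenchymal genes was not tested. Endothelial markers were split: 2 of 23 rose and 8 fell, against 4 and 3 with equal totals and 1 and 11 with equal medians, and the median of -0.04 turned to 0.10 with equal totals. Lyve1, a hyaluronan receptor, rose by 0.94, whereas Fcgr2b fell from 1840.3, 1815 and 1874 to 1016, 1137 and 1363. Of 12 bile duct markers 3 rose and 2 fell, against 2 and 3 with equal medians. Spp1, osteopontin, was among the latter at -0.36 ± 0.04, with 2211 ± 81.8 in control, 1723 ± 54.6 in the selenite group (SD, n = 3) and a β-CYP mean of 6476.

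**Figure D3:**
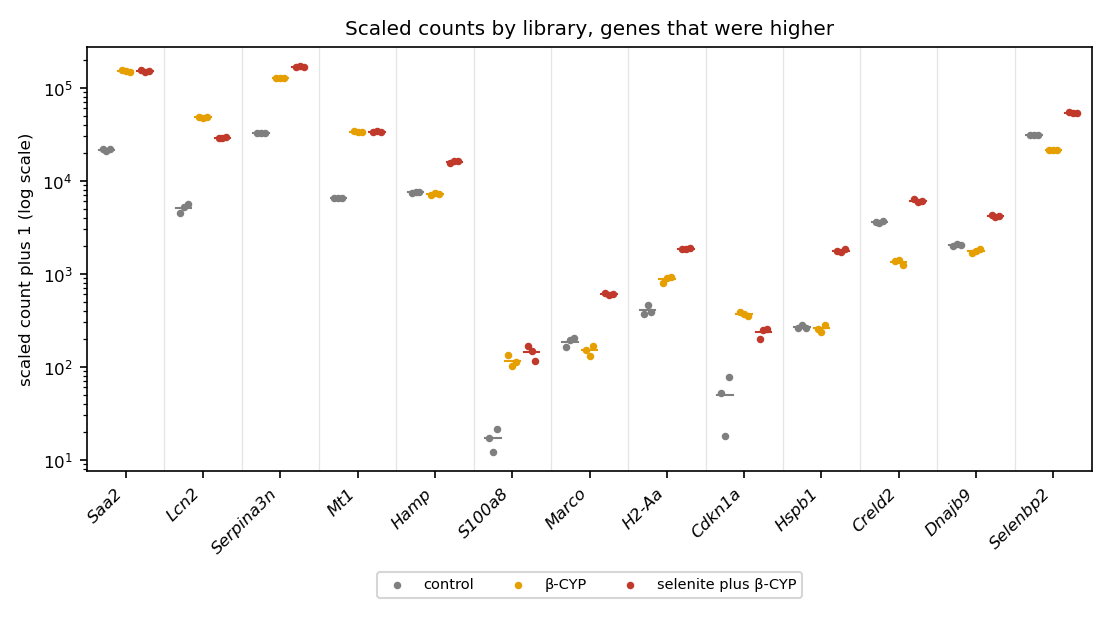
Scaled counts plus 1 (y axis, log scale) of 13 genes in each of the 9 libraries; points are libraries, short lines group means, grey control, orange β-CYP and red selenite plus β-CYP. All selenite libraries lie above all control libraries for each gene; Saa2 lay at 154451, 146050.0 and 152436 in the selenite libraries, whereas Creld2 and Selenbp2 were below control in the β-CYP group.

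The metallothioneins rose. Mt1 and Mt2 encode metallothioneins, small cysteine-rich proteins that bind zinc and copper. Mt1 had 6542, 6480.4 and 6509 scaled counts in control and 33593, 34003 and 33784 in the selenite group, a change of 2.38 ± 0.02 (5.19-fold, adjusted p = 5.31e-13). Mt2 had 6701, 6800.4 and 6766 and 26412, 26046 and 25251, a change of 1.94 ± 0.02. No library of one group approached the other group, and the β-CYP means were 33704 and 33235. Slc39a14, the zinc importer induced by interleukin-6, rose by 1.04, and Slc39a10, another importer, from 93.1, 87.6 and 144 to 539.5, 561 and 564, with a β-CYP mean of 115. The zinc exporter Slc30a1 fell by 1.29-fold. In all, 5 of 10 genes of this list rose and 2 fell. Promoter windows of both metallothioneins are printed because the genes are textbook examples of metal response and moved together. They are the 250 bases before the start in RefSeq (GRCm38.p6, plus strand), Mt1 at chr8:94178839-94179088 and Mt2 at chr8:94172368-94172617, with matches to TGCACNC or TGCGCNC, cores of the metal response element, on either strand in capitals.
Mt1: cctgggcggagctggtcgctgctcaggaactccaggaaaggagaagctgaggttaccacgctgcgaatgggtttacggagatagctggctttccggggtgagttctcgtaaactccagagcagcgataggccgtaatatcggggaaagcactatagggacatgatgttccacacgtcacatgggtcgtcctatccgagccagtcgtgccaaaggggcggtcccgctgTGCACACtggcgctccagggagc
Mt2: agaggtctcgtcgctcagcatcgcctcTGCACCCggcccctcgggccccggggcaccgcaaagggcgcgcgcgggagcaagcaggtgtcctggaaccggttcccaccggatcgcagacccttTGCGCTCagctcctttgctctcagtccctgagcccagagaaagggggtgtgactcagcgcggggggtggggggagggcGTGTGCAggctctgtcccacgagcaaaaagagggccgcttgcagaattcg
TGCACNC was found in the windows of 5 of the 9 listed genes that have one (55.6%) and in 11.8% of all 27025 RefSeq windows, and TGCGCNC in 2 of 9 (22.2%) and 14.0%. A match describes the letters only, and letters outside these windows were not searched.

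Iron genes were mixed, with 5 of 16 higher and 8 lower, and a median of -0.17 that changed sign with quantile normalization (0.07). With equal totals 7 rose and 4 fell. Hamp, the hormone hepcidin that closes iron export, had 7401, 7497 and 7529 scaled counts in control and 15368, 16213 and 16208 in the selenite group, a change of 1.09 ± 0.03. Its β-CYP mean was 7222, close to control. Hamp2, a close relative of Hamp, also passed the test, and reads of the pair could have been split. Tfrc, the transferrin receptor for iron uptake, fell from 1005, 1012 and 1088 to 412, 393 and 416. Hmox1, which degrades haem, rose by 0.90. Of 10 genes of haem synthesis 6 fell and 1 rose, led by Alas1, the rate-limiting enzyme in liver, from 7775, 8574 and 8824 to 1592, 1576 and 1607. Of 8 erythroid markers 6 fell, among them Hbb-bs at -0.39 and Alas2 at -0.57.

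In the ER, many folding factors stood above control in the selenite group and below it with β-CYP alone. Of 29 genes of the unfolded protein response 16 rose and 7 fell. The counts for β-CYP alone, against the same controls, were 2 higher and 22 lower. The selenite count depends on the scaling: with equal medians it was 11 and 11, and the list's median went from 0.15 to -0.01. Creld2, a secreted disulfide isomerase, had 3626, 3530.1 and 3674 scaled counts in control, 1363, 1398 and 1238 with β-CYP and 6288, 5849 and 6101 in the selenite group. The groups were fully separate, with a change from control of 0.75 ± 0.05 (adjusted p = 2.61e-06). Syvn1, a ubiquitin ligase that clears misfolded proteins, had 4359, 4431 and 4469.9, 2431, 1695 and 2538 and 8147, 8316 and 6069.6 in the same order, so selenite replicate 3 was lower than its group but still above control. Hspa5, the main ER chaperone BiP, had 32098, 30846 and 31685, 18275, 13887 and 18518 and 42091, 30197 and 40013. Its change from control of 0.23 ± 0.13 did not pass the test (adjusted p = 0.237). Selenite replicate 2 lay below all controls and the other selenite libraries above them, and without that library the adjusted p was 0.0401. Dnajb9, a co-chaperone of BiP, rose by 1.04, Hspa13 by 0.81, Sdf2l1 by 0.46, Manf by 0.41 and Hyou1 by 0.31. Xbp1, a transcription factor of this response, rose by 0.42, whereas its activator Ern1 fell from 3686, 3608 and 3728 to 2653, 2789 and 2656, as did the oxidase Ero1lb by 1.4-fold. Acinar cells of the pancreas are rich in ER folding factors. Their transcripts were 69407 to 71421 reads in the selenite libraries, and their part in these rises was not tested.

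The windows of Creld2, Syvn1 and Hspa5 are shown because all 3 carry the same full ER stress element, CCAAT, then 9 bases of any kind, then CCACG, in capitals on whichever strand it was found. They are the 250 bases before the RefSeq start (GRCm38.p6, plus strand), Creld2 at chr15:88819396-88819645, Syvn1 at chr19:6046326-6046575 and Hspa5 at chr2:34771840-34772089.
Creld2: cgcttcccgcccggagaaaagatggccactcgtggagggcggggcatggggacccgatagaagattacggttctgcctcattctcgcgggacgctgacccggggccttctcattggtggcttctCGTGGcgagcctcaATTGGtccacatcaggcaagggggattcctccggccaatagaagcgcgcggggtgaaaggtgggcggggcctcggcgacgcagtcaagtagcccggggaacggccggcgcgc
Syvn1: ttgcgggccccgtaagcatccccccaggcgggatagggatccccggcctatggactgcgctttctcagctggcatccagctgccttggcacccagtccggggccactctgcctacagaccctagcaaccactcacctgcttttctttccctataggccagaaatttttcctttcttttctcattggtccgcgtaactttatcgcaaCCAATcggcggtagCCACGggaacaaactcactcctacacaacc
Hspa5: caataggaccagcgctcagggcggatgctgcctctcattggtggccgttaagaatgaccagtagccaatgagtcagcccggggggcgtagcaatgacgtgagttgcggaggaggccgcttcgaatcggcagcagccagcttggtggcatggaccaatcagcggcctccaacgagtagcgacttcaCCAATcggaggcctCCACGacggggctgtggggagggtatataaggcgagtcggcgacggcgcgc
The element was found in 9 of the 23 listed ER genes that have a window (39.1%), and in 35 of 27025 windows in all (0.130%). Among the listed genes it was present in 4 of 12 that rose and in 5 of 11 that did not, 33.3% and 45.5%.

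The integrated stress response, which acts through ATF4 when translation is slowed, gave no common direction: 5 of 23 rose and 7 fell, against 6 and 4 with equal totals, and with 4 lower without control replicate 1 or selenite replicate 3. Atf4 rose by 0.43, Nupr1 by 1.26, Mthfd2 by 0.79 and the amino acid transporter Slc7a5 by 0.73. Psat1, an enzyme of serine synthesis, rose from 5.02 ± 2.63 to 61.4 ± 7.73 (SD, n = 3). Cth, which makes cysteine from cystathionine, fell from 8573, 8065 and 8430.1 to 4464, 3503 and 3537. Asns, asparagine synthetase, had 68.8, 58.4 and 68.6 and 47.9, 34.1 and 28.7, and its adjusted p of 0.0203 was above 0.05 in 5 alternatives (0.0561 to 0.0632): equal totals, and leaving out control replicate 1 or 3 or selenite replicate 2 or 3. Ddit3 and Chac1, markers of a strong response, did not pass, at 0.16 ± 0.10 and 0.16 ± 0.17. Of 20 aminoacyl-tRNA synthetases, which charge tRNAs for translation, 13 rose and 1 fell, with a median of 0.29 and with 2 higher after β-CYP alone. With equal medians 8 rose and the median was 0.13, and without an intensity trend 10 rose. Lars had 921, 960.3 and 815 and 1540.3, 1344 and 1332, Nars 3570.4, 3508 and 3349.9 and 5206, 5034 and 5200.4, and neither overlapped. Wars and Rars rose by 0.56 and 0.49.

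Cytosolic heat shock chaperones moved apart from one another, with 8 of 17 higher and 7 lower, and 5 and 8 with equal medians. Hspa8, the constitutive HSP70, had 31842, 36270.0 and 34343 scaled counts in control and 8387, 8829 and 9606 in the selenite group, a change of -1.93 ± 0.07 (adjusted p = 2.78e-08), and averaged 24634 with β-CYP alone. Its co-chaperones Dnaja1 and Hsph1 fell by 2.08-fold and 1.99-fold. Hspb1, a small heat shock protein, moved the other way, from 261, 279 and 257 to 1732, 1689.8 and 1827, with a β-CYP mean of 258 within the control range. Hspa1a, the inducible HSP70, rose by 0.91, though it is nearly identical to a neighbouring copy.

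Of 26 genes of bile acid synthesis and transport 22 fell, against 14.5% of all genes, and 2 rose. Cyp7a1, the enzyme that limits the rate at which bile acids are made, had 4768, 4983 and 4781 scaled counts in control and 938, 816 and 796 in the selenite group, 5.7-fold lower, with a β-CYP mean of 883. Cyp39a1, an oxysterol hydroxylase, fell from 416, 382 and 369 to 13.8, 26.7 and 45.04, a change of -3.87 ± 0.34, with a β-CYP mean of 238. Cyp8b1, which sets the share of cholic acid, fell by 2.04-fold, the reductase Akr1d1 by 2.23-fold, the canalicular bile salt pump Abcb11 by 1.88-fold and the uptake carrier Slco1a1 by 2.4-fold. For β-CYP alone 12 of the list were lower than control and 4 higher.

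Genes of glucose release followed the same direction, with 12 of 18 lower and 3 higher. G6pc, glucose-6-phosphatase, the last step of glucose release, had 10535, 10742 and 10317 in control and 1203, 1334 and 1228 in the selenite group, a change of -3.07 ± 0.05 (8.39-fold lower, adjusted p = 2.45e-10). Pck1, which starts gluconeogenesis from oxaloacetate, fell from 105274, 103105 and 106537 to 31994, 31462 and 32163. The β-CYP means lay between the groups, at 2372 for G6pc and 52521 for Pck1. The coactivator Ppargc1a fell by 2.63-fold, the transcription factor Foxo1 by 2.1-fold and Igfbp1, one of its targets, by 2.47-fold. Of 25 genes of glycolysis, fructose and glycogen 15 fell and 3 rose, but with equal totals the counts were 7 and 6. Ppp1r3b, which targets a phosphatase to glycogen, fell by 1.89-fold. Pfkfb3 fell from 966, 1169 and 2135 to 658, 535 and 487, with a wide spread among the controls.

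Enzymes of amino acid breakdown were lower with few exceptions. Of 49 genes of amino acid breakdown 41 fell and 4 rose, with a median change of -0.59; in the β-CYP group 17 were lower and 13 higher, with a median of -0.04. Tat, which starts tyrosine breakdown and is a classic glucocorticoid target, had 79824, 81257 and 82046 scaled counts in control and 22022, 21849 and 22395 in the selenite group, with a β-CYP mean of 58171. The change from control was -1.88 ± 0.02 (adjusted p = 3.04e-12). Got1, the cytosolic aspartate aminotransferase, fell from 6399, 8406 and 8245 to 1316, 1445 and 1306. Kynu of tryptophan breakdown fell by 2.53-fold, Hgd of tyrosine breakdown by 2.35-fold, Cbs of the transsulfuration pathway by 2.21-fold and ornithine aminotransferase Oat by 2.34-fold. Etnppl, a phospholyase, fell from 4129.9, 4376 and 4007 to 458, 414 and 378, and its β-CYP mean was 559.7. Cdo1, cysteine dioxygenase, was one of the few that rose, by 0.30.

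Of 13 genes of the urea cycle and ammonia handling 11 fell. Cps1, the mitochondrial entry enzyme, fell by 1.22-fold, Arg1 by 1.41-fold, Ass1 by 1.98-fold and Asl by 2.02-fold. Gls2, liver glutaminase, fell from 10252, 10675 and 10263 to 4377, 4195 and 4411. Glul, glutamine synthetase of pericentral hepatocytes, did not pass, at 0.06 ± 0.04. Genes of both zones of the lobule were affected: 16 of 20 periportal and 12 of 25 pericentral genes fell, and whether the zones differ was not tested. Of 26 hepatocyte identity factors 9 fell and 3 rose, 4 and 6 with equal totals. Hnf4a, the master regulator of the hepatocyte, changed by -0.37 ± 0.03 and Esrra by -0.53 ± 0.07; Hnf4a lost its call with quantile normalization (adjusted p = 0.0730). Alb, albumin, changed by -0.13 ± 0.02, a fall that vanished with equal totals (0.0042) and quantile normalization (0.00).

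**Figure D4:**
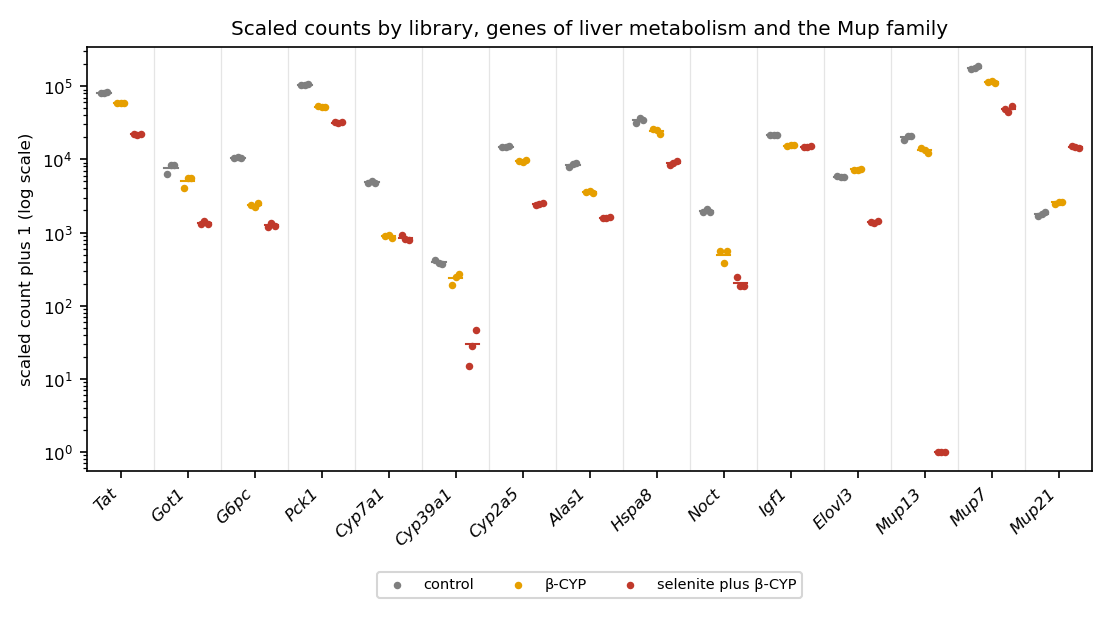
Scaled counts plus 1 (y axis, log scale) of 15 genes in each of the 9 libraries; points are libraries, short lines group means, grey control, orange β-CYP and red selenite plus β-CYP. The selenite libraries lie below every control library for 14 genes, down to 0 reads for Mup13, and above them for Mup21.

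Lipid genes did not move in one direction. In lipogenesis and desaturation 11 of 24 fell and 3 rose. Elovl3, an elongase of very long fatty acids, had 5898, 5734 and 5766 in control, a β-CYP mean of 7268 and 1394, 1358 and 1429 in the selenite group, so it was lower than both. Thrsp, Lpin1, Fads2 and Srebf1, the transcription factor of lipogenesis, fell by 2.24-fold, 2.29-fold, 1.98-fold and 1.78-fold. Fasn, fatty acid synthase, did not pass (-0.02 ± 0.05), and Scd1, the main desaturase, changed by 0.13 ± 0.02, a sign that turned with equal medians (-0.03). Among PPARA targets 12 of 46 rose and 17 fell. The balance depends on the scaling: 15 rose and 9 fell with equal totals, 16 and 10 with quantile normalization, and 7 and 22 with equal medians, where the median turned from 0.02 to -0.14. For β-CYP alone 26 were higher and 5 lower. The fatty acid hydroxylases Cyp4a10 and Cyp4a14 fell, Cyp4a10 from 544, 603 and 656 to 154, 142 and 131 and Cyp4a14 from 174, 168 and 151 to 11.05, 10.1 and 31.6, while their β-CYP means were 1039 and 298. The lipid droplet proteins Plin2 and Cidec rose, Plin2 from 7477, 7374 and 7403 to 18513, 18076 and 17651 and Cidec from 50.6, 40.3 and 37.7 to 295, 312 and 250.1. Cpt1a, which admits fatty acids to mitochondria, changed by 0.14 ± 0.02, which equal medians turned to -0.02.

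Cholesterol synthesis and uptake had 8 genes higher and 8 lower of 26, and its median of -0.04 changed sign with equal totals (0.10), where 9 were higher and 4 lower, against 5 and 15 with equal medians. Sqle, squalene epoxidase, rose from 1981, 2169 and 2026 to 3909, 3769.8 and 3623, Hmgcs1 by 0.51 and the regulator Srebf2 by 0.53. Sc5d fell by 1.6-fold. In lipoprotein assembly 7 of 23 rose and 7 fell, with a median of 0.03 that turned to -0.13 with equal medians, where 5 rose and 11 fell, against 11 and 2 with equal totals. Apoa4 rose from 10981, 10878 and 11242 to 31741, 31601 and 31402, and Angptl8, an inhibitor of lipoprotein lipase, by 1.68. Lipg, endothelial lipase, fell by 1.82-fold. Fat-cell markers on the whole did not move together, with 3 of 9 higher and 1 lower. Fabp4 rose by 1.27, and Car3, a carbonic anhydrase that hepatocytes also make, fell from 106593, 105677 and 107176 to 49168, 50015 and 49678.

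Drug-metabolising enzymes fell with few exceptions. Of 45 cytochrome P450 and conjugation enzymes outside the xenobiotic receptor lists 36 fell and 5 rose, with a median of -0.60. The carboxylesterases Ces1f and Ces1d, which hydrolyse ester bonds of drugs and lipids, fell from 16643, 16765 and 16793 to 6472, 6581 and 6443 and from 8173, 8364 and 8131 to 3649, 3402 and 3376. Ces2a fell by 2.61-fold and the glucuronosyltransferase Ugt2b1 by 2.54-fold. Cyp2e1, which oxidises ethanol, fell by 1.3-fold, and its adjusted p was 0.0573 with quantile normalization. Sult1a1, a phenol sulfotransferase, rose by 0.64.

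Among genes that respond to the xenobiotic receptors CAR and PXR 20 of 34 fell and 4 rose, whereas β-CYP alone gave 10 higher and 10 lower. Cyp2b10, the standard CAR target, had 523, 579 and 515 scaled counts in control, 2566, 2409.6 and 2397 in the β-CYP group and 553, 587 and 537 in the selenite group. The selenite and control libraries overlapped, and the change of 0.05 ± 0.06 did not pass (adjusted p = 0.589; 0.0490 with equal totals). Cyp3a11, the standard PXR target, rose from 58383, 58074 and 57752 to 87130.5, 84667 and 85750.2, with a β-CYP mean of 88749. Cyp2a5, a coumarin hydroxylase, fell from 14536, 14709 and 14995 to 2343, 2456 and 2549.9, a change of -2.59 ± 0.04, and its close relative Cyp2a4 by 9.99-fold. Por, the electron donor of P450 enzymes, did not pass, at 0.05 ± 0.04. Of 8 AHR-responsive genes 2 fell and none rose, with a median of 0.04. That is 25% of the list, against 28.9% that differed among all genes tested. The 2 were the receptor Ahr itself, 2.46-fold lower, and Cyp1a2, 1.61-fold lower.

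Genes that differ between male and female liver, largely under the control of pulsatile growth hormone and STAT5, leaned lower in both lists. Of 26 male-biased genes 23 fell and 2 rose, with a median change of -0.94. Of 22 female-biased genes 8 fell and 2 rose. Among all genes 14.5% fell and 14.4% rose. The difference between these lists was not tested, and both hold members of gene families whose reads may be split. Hsd3b5, a male-specific steroid enzyme, fell from 7165, 7209 and 7262 to 2250.1, 2239.6 and 2273, with a β-CYP mean of 2081, and Cspg5 by 3.24-fold. On the female-biased side, Ntrk2 fell from 1053, 990.5 and 1089 to 235, 195 and 92.95, and Prlr, the prolactin receptor, by 2.13-fold. In the growth hormone list 13 of 17 fell. The receptor Ghr fell by 1.97-fold, Igf1, the circulating growth factor, from 21706, 21262 and 21747 to 14612, 14775 and 15065, and Igfals, which stabilises it in blood, by 2.84-fold. For β-CYP alone 13 of the growth hormone list were lower than control.

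The major urinary proteins, pheromone carriers that male liver makes in bulk, did not change alike. Of 20 numbered Mup genes tested 15 fell and 1 rose, and of 16 Mup pseudogenes 9 fell. Summed over the 20 genes, scaled counts were 997027, 1004355 and 1031280.4 in control, 771516, 783239 and 726299 with β-CYP alone, and 430077, 395058 and 457570.4 in the selenite group, so each selenite library was below every control library. Mup13 had 17991, 20645 and 18146 reads in the control libraries and 0 in each selenite library, at least 7106-fold lower, whereas the β-CYP libraries averaged 13281 scaled counts. The pseudogene Mup-ps19 showed the same pattern, with 19018, 19713 and 16872 reads in control and 0 in the selenite group. Mup21 went the other way, from 1660.3, 1789 and 1885 to 15199.5, 14717 and 14219.5 scaled counts, a change of 3.05 ± 0.05. Mup15, Mup11, Mup7 and Mup20 fell by 7.56-fold, 6.03-fold, 3.64-fold and 3.18-fold. The genes are near-identical copies, so the counting could have moved reads between members, and the sum is the firmer value.

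The 12 largest falls among genes with a mean of at least 100 scaled counts in the higher group and no overlap of libraries also held genes outside these lists. Raet1d, a ligand of the receptor NKG2D, fell from 3310.4, 3234 and 3237 to 293, 311 and 356, Gspt2, a translation release factor, from 137, 92.6 and 82.3 to 3.68, 2.77 and 2.87, and Ren1, renin, from 188, 197 and 205 to 15.7, 4.61 and 4.79. Igsf23 fell from 153, 174 and 139 to 9.21, 11.99 and 10.5, and its β-CYP mean was 1.04. Gm6135 fell by 11.6-fold.

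Selenoprotein transcripts changed by small amounts in both directions. Of 23 tested 4 rose and 9 fell, with a median of -0.22. With equal totals 4 rose and 5 fell, and without control replicate 1, control replicate 3 or selenite replicate 3 the number that rose was 2. Selenow, a small redox protein, fell from 2473, 2376 and 2369 to 1488, 1519 and 1481, a change of -0.68 ± 0.04 (adjusted p = 3.98e-07). Dio1, the deiodinase that activates thyroid hormone, had 4104, 4066 and 4052 and 2951, 3015 and 3071, and Msrb1, which repairs oxidised methionine, 9685, 9658 and 9381 and 7370.1, 7273 and 7375. The groups did not overlap for these 3 genes. Txnrd2, the mitochondrial thioredoxin reductase, fell by 1.33-fold. Gpx4, which protects membrane lipids, changed by -0.23 ± 0.03 and lost its call with equal totals (adjusted p = 0.252). Selenop, the selenium carrier of plasma, had 162988, 166656 and 169296 and 159106, 156982 and 161605, a change of -0.06 ± 0.02 that turned to 0.07 with equal totals and 0.10 with quantile normalization, and lost its call in 6 other alternatives (adjusted p up to 0.406), among them leaving out control replicate 2 or 3 or selenite replicate 1 or 2.

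Gpx1, the abundant cytosolic glutathione peroxidase, had 48935, 48432 and 40648 scaled counts in control and 35223, 3912 and 34018 in the selenite group. Selenite replicate 2 was far below the other libraries of its group, and the change of -1.45 ± 0.69 did not pass (adjusted p = 0.154). Without that library the adjusted p was 0.0223. Txnrd1, the cytosolic thioredoxin reductase, did not pass either, at 0.02 ± 0.04, and its sign turned with equal medians (-0.14). The selenoproteins that rose included Selenon and Selenok, both of the ER membrane, Selenon from 63.7, 79.5 and 64.00 to 166, 185 and 153 and Selenok from 1262, 1154 and 1227 to 1811, 1651 and 1578. Selenos, a component of ER protein clearance, changed by 0.17 ± 0.06 and Gpx3, the plasma peroxidase, by 0.42 ± 0.13. Neither call was firm. That of Selenos (adjusted p = 0.0471) was lost in 10 alternatives (0.0543 to 0.936), among them leaving out any control library, selenite replicate 1 or selenite replicate 3. That of Gpx3 (adjusted p = 0.0389) was lost in 9 (0.0565 to 0.179), among them leaving out control replicate 1 or 3 or selenite replicate 2 or 3.

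**Figure D5:**
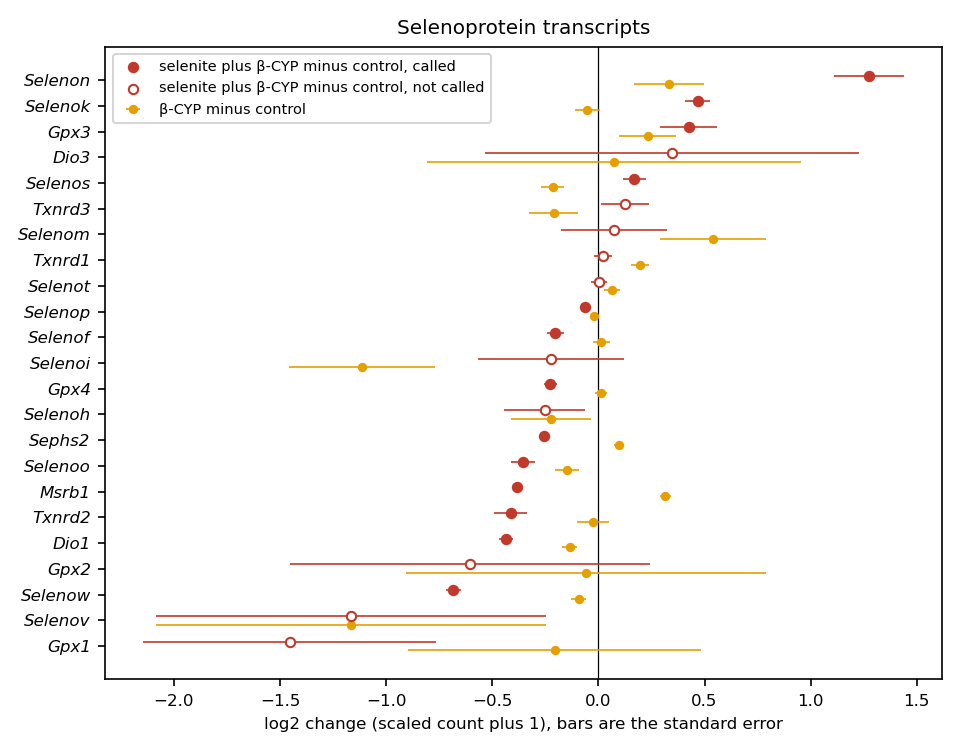
Log2 change from control (x axis) of the 23 tested selenoprotein transcripts (y axis); red, selenite plus β-CYP, filled where the adjusted p was under 0.05; orange, β-CYP alone; bars are standard errors, and both sets share the control libraries. Red points run from -1.45 for Gpx1, whose bar is wide, to 1.27 for Selenon.

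Of 17 genes of selenium handling and selenocysteine synthesis 8 fell and 1 rose. The methyltransferases Tpmt and Inmt, which can methylate selenium compounds, fell from 2429, 2307 and 2378 to 1408, 1547 and 1483 and from 4415, 4262 and 4007 to 2579.7, 2762 and 2687. The gene that rose was Selenbp2, a liver selenium-binding protein without selenocysteine. It had 30702, 30697 and 30875 scaled counts in control, 21491, 21431 and 21518 with β-CYP alone and 55065, 53049.6 and 53461 in the selenite group, with a change from control of 0.81 ± 0.02 (adjusted p = 1.27e-09). Its close relative Selenbp1 fell by 1.26-fold, and reads of the pair could have been split.

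Antioxidant genes leaned lower. Of 22 antioxidant enzymes 10 fell and 1 rose, 3 and 3 with equal totals. Cat, catalase of peroxisomes, fell from 111935, 114211 and 114439 to 67372, 68405 and 69436. Sod1 changed by -0.16 ± 0.02, which turned to 0.12 with quantile normalization. Among targets of NRF2, a transcription factor of the response to oxidants and electrophiles, 7 of 34 rose and 10 fell. The list's median of -0.02 turned to 0.12 with equal totals, where 9 rose and 7 fell. Srxn1, sulfiredoxin, rose from 814, 1041 and 753 to 1911, 1593 and 2150.3. Gstm2 and Mafg fell by 1.7-fold and 1.59-fold. Nqo1, the usual marker of NRF2 activity, did not pass, at -0.54 ± 0.26, although its adjusted p was 0.0247 without control replicate 1. Gclc, of glutathione synthesis, changed by -0.23 ± 0.03 and lost its call with equal totals and quantile normalization (adjusted p 0.234 and 0.424).

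Respiration and translation moved in ways that hang on the scaling. Of 38 nuclear genes of oxidative phosphorylation 27 fell and none rose, but 2 fell with equal totals and 12 without an intensity trend in the model. Sdhd, a subunit of complex II, fell by 1.32-fold. All 15 tested transcripts of the mitochondrial genome fell, 11 with equal totals and 7 with quantile normalization, where 2 rose. mt-Co1, a subunit of complex IV, had 917552, 960598 and 951400.2 and 749399, 765122 and 776545, and its sign turned with quantile normalization (0.20). mt-Rnr2, the large mitochondrial rRNA, had 21519.5, 117615 and 22225 in control and 11572, 11230.1 and 11439 in the selenite group. The high value belongs to control replicate 2, the library rich in AY036118, and 7 alternatives, among them leaving out any 1 selenite library, ended its call (adjusted p 0.0721 to 0.101). Of 39 ribosomal protein genes 20 rose and 3 fell, but 4 and 4 with equal medians, where the list's median was -0.02, and without control replicate 1 the number that fell was 1. Rplp0 rose from 5892, 5839 and 5939.7 to 10137, 9752 and 9754, and Rplp2 and Rpsa by 0.37 and 0.35.

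The clock genes leaned lower. Of 21 circadian genes 12 fell and 1 rose. Noct, a rhythmic phosphatase, fell from 1884, 2104 and 1898 to 244, 183 and 183, a change of -3.28 ± 0.16, with a β-CYP mean of 495. The clock genes Per1 and Nr1d1 fell by 1.9-fold and 1.57-fold and Usp2 by 1.75-fold. Dbp changed by -0.29 ± 0.04 and lost its call with equal totals (adjusted p = 0.0833), and Arntl, the core activator, did not pass, at -0.17 ± 0.11. The labels give no time of day for the samples. Cdkn1a, the cell cycle inhibitor p21, rose from 50.6, 17.1 and 76.6 to 197, 248 and 252, with a β-CYP mean of 369.6. Its list of p53 targets and growth arrest genes had 6 of 22 higher and 4 lower (4 and 5 with equal medians), and Gadd45g was among the latter, 2.54-fold lower. Of 24 immediate early genes 10 rose and 3 fell. Atf3 rose from 17.2, 10.1 and 9.14 to 89.3, 71.02 and 81.5 and Jun from 309, 307 and 263 to 594, 505 and 579.7, and Ier5 by 0.87. Of 30 genes of cell cycle and DNA replication 7 fell and 2 rose. That is 30% of the list, close to the 28.9% that differed among all genes tested. E2f1 fell from 93.1, 112 and 114 to 45.1, 41.5 and 45.04, Mcm6 of the replicative helicase by 2.38-fold and Mki67, the proliferation marker, by 1.6-fold.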

How the data were processed

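Liver RNA was sequenced from 9 samples in 3 groups of 3, and 6 of them enter the comparison. The deposited table gives 25781 genes in log2 units, and its values show that each is log2 of a scaled count plus 1, computed by the authors. HISAT, Cufflinks and the mouse build mm9 are named per the submitters' processing notes, with no version or role, and the read counter is likewise not given in these sources. The design text names one sequencer and the library protocol another, so the platform is uncertain. Removing the log and the scaling gave whole reads for 100% of values within 0.02, and the scale factors equalled median-of-ratios size factors in 9 of 9 libraries within 1e-06. Dividing by these factors makes levels comparable between libraries, not between genes, which were not scaled by length.

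Genes with a mean of at least 1 scaled count were tested with limma 3.58.1 in R 4.3.3 (moderated test with an intensity trend, 3 group means over all 9 libraries, a shared spread, Benjamini-Hochberg adjustment over 20145 genes, threshold 0.05). Adjusted p-values in the text come from this fit. The script was tested on simulated data with 50 genes changed at each fold. It recovered 26% of 1.25-fold, 60% of 1.5-fold, 88% of 2-fold and 98% of 4-fold changes. Of its 152 calls there, 16 were false. Where a group had 0 reads, the fold is a lower bound with 3 reads per library in place of 0. Intervals and bounds cover counting error only. Fold changes on the log2(value + 1) scale understate the change of low genes.

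The gene lists and the comparison were chosen with earlier results of these data known. The genes named are drawn from the 12 largest rises and falls outside the acinar and islet lists among genes that passed the test, had no overlap of libraries and had a mean of at least 100 scaled counts in the higher group, the 4 largest changes of each list with the same minimum, and a set of textbook genes, and further list members were chosen after their values were seen. Not every gene this rule gives is printed, and some results are not reported here. Entries that share a symbol under different identifiers were counted separately. Reads of near-identical copies (Mup, Saa, Amy2, Cyp2a, Cyp2c, Cyp4a, enolase, hepcidin, MHC and HSP70 genes) could be split by the counting. The alternatives were other pseudocounts and filters, 4 other scalings, scale factors without pancreatic genes, the 6 libraries alone, voom on the recovered reads, a fit without the trend, a replicate block, and each replicate left out in turn. Promoter windows come from RefSeq (GRCm38.p6), a later build than the deposited processing, and were matched by gene symbol.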

Additional observations from a re-analysis of the deposited data

How the results depend on the processing

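The number of genes that differed stayed between 4931 (no intensity trend) and 5956 (pseudocount 10) under the alternatives that keep the scaling and all libraries, and was 5840 with voom on the recovered reads. Leaving out 1 library gave 4994 to 5163 genes, with 2372 to 2551 higher and 2564 to 2635 lower. The scaling moved the split: 3977 rose and 1763 fell with equal totals, 1819 rose and 4550 fell with equal medians, while the median change of all genes went from 0.0273 to 0.156 and -0.134. This median follows from the scaling chosen, the main one included, and which scaling is right was not tested.

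Of the named genes that passed or missed the threshold, these changed sign under another scaling: Alb to 0.0042 with equal totals and 0.00 with quantile normalization, Selenop to 0.0736 and 0.1039 with the same, Cpt1a to -0.0224, Scd1 to -0.0342 and Txnrd1 to -0.1403 with equal medians, and Fasn to 0.1888, Sod1 to 0.1248 and mt-Co1 to 0.2003 with quantile normalization. Any cause beyond the shift of the scale was not tested. Of 118 list counts (59 lists in each direction), 55 stayed within 1.5 times in every alternative.

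The replicate block gave 5506 genes (2734 higher, 2772 lower). Deviations of control and selenite libraries with the same number correlated at 0.059, 0.0942 and 0.087, all under 0.1, so the numbers are not taken to pair the samples, although each library correlated best with its own number in the other group. Depth sets the limit for genes with 0 reads in a group, whose folds are given as bounds.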
